A study of Mus musculus with 8 samples.

Results

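The Hox cluster genes of mouse were followed in RNA-seq libraries of induced cardiomyocytes, which are fibroblasts pushed towards a heart muscle identity by transcription factors delivered from outside. Members were all rows of the count table whose symbol is Hox, a cluster letter a to d and a number. This gave 39 genes of 53921 named rows, with 11 in HoxA, 10 in HoxB, 9 in HoxC and 9 in HoxD. The 2 control libraries came from cells given MGT, the usual name for the mix of Mef2c, Gata4 and Tbx5, together with the hairpin labelled shNT. The 2 other libraries came from cells given MGT together with shGrhl3, a hairpin aimed at the epithelial transcription factor Grhl3 of the Grainyhead-like family. The count columns read as these libraries are named shGrhl1 and shGrhl2. They could also stand for hairpins against Grhl1 and Grhl2, in which case every fold change below would describe those instead, but Grhl3 alone is named as a target in the labels. All were collected on day 5. Cells of all 4 libraries therefore carry the reprogramming factors, libraries of uninduced fibroblasts were not analysed here, and each library is bulk RNA. The labels leave unsaid whether the libraries of a group are separate cultures, so a p-value here reflects library-to-library spread that could be technical alone. H3K27ac CUT&Tag, listed with 4 samples, was not used.

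Hox genes encode homeodomain transcription factors that give cells their position along the body and limb axes. The genes of a cluster lie in the order of the body regions where they act, with low paralog numbers used towards the head and high numbers towards the tail. Fibroblasts of adult organs keep part of their embryonic Hox code, and low-numbered Hox genes mark part of the second heart field of the embryo. Hox proteins bind DNA with cofactors of the TALE class such as Pbx and Meis, Polycomb complexes keep silent Hox genes closed, and retinoic acid opens the low-numbered end of the clusters.

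The libraries held 19256438 and 16102839 counts (shNT) and 19822541 and 18608893 counts (shGrhl3). Grhl3 had 31 and 14 counts in shNT and 11 and 19 in shGrhl3, with overlapping groups. edgeR's quasi-likelihood test gave a log2 fold change of -0.72 (95% interval -1.81 to 0.37) and an adjusted p of 0.311. At this depth no fall of the targeted mRNA was detected, so the counts do not check the label. Grhl1 had 13 and 3 counts in shNT, 26 in the column shGrhl1 and 24 in the column shGrhl2. It did not pass (log2 fold change 1.49, edgeR adjusted p = 0.0549). Grhl2 had 0 and 5 counts in shNT against 1 and 0, too few to test. Of 15324 genes tested, 17.2% were called higher and 18.1% lower in shGrhl3 at an adjusted p below 0.05, and the median log2 fold change was -0.01. Markers of some cell types moved with the groups. Of 8 endothelial markers tested 1 was lower and 0 higher, and of 4 glial and neuronal markers 1 was lower and 0 higher. Of 6 smooth muscle and pericyte markers tested 2 were higher and 0 lower, though the median log2 fold change of the 6 was -0.15. Their summed level in shGrhl3 was 0.928 of that in shNT. The summed level of 15 leukocyte markers was 670 and 922 CPM (counts scaled to TMM-adjusted library size) in shNT against 152 and 122 in shGrhl3. Of the 11 tested, 10 were lower and Csf1r was higher. The 6 epicardial and mesothelial markers summed to 227 and 253 CPM in shNT and 336 and 331 in shGrhl3. Of the 5 tested, Upk3b and Upk1b were called higher and 0 were called lower. The 8 cardiomyocyte markers summed to 4378 and 4480 CPM in shNT and 5620 and 5330 in shGrhl3, and 4 were called higher and 0 lower. Most of that sum was Tnnt2, at 3135 and 3294 CPM in shNT and 3311 and 3105 in shGrhl3, while Myh6 stood at 20.4 and 20.8 CPM against 241 and 261. Pln and Myl2, also cardiomyocyte markers, stayed between 0.627 and 1.65 CPM in all 4 libraries. The 8 fibroblast markers summed to 9821 and 9911 CPM in shNT and 11000 and 11713 in shGrhl3, but 4 of them were called lower and 2 higher, with a median log2 fold change of -0.24. Col1a1, at 4242 and 4159 CPM against 5667 and 6500, was the largest term of that sum, and Pdgfra fell by 1.14 on the log2 scale. The 6 epithelial markers summed to 3.45 and 2.90 CPM in shNT and 6.28 and 4.76 in shGrhl3, with Esrp1 at 0 in all 4 libraries. Most of that sum was Krt18, at 2.56 and 1.95 CPM in shNT and 4.19 and 4.39 in shGrhl3. In bulk RNA, fewer cells of a type and less RNA per cell cannot be told apart.

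Promoter letters were read for the Hox genes because the hairpin is aimed at a DNA-binding factor. RefSeq windows on GRCm38.p6 (mm10) covering the 250 bases before a gene's start were held for 22 of the 39 genes, as 24 windows. Hoxb4, Hoxd8 and Hoxd9 are shown because they are the genes with enough counts to be tested that have an entry. They are given 5′ to 3′ on the plus strand, at chr11:96318017-96318266, chr2:74704365-74704614 and chr2:74697513-74697762. Capitals mark letters of the 7 motifs searched below.
Hoxb4: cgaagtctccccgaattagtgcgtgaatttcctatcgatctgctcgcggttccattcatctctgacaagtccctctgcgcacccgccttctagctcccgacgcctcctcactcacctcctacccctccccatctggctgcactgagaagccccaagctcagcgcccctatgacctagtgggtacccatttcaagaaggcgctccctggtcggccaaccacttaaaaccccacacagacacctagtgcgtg
Hoxd8: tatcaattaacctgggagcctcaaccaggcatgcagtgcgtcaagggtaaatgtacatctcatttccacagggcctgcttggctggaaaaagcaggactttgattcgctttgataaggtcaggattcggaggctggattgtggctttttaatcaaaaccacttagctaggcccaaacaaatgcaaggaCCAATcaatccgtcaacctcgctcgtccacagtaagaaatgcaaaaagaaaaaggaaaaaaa
Hoxd9: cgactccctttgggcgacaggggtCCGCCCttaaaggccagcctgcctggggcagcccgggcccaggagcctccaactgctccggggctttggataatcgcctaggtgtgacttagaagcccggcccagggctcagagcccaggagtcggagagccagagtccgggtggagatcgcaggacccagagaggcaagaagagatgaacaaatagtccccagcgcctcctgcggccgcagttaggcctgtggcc

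None of the motifs was found in the Hoxb4 window, a CCAAT in Hoxd8 and a CCGCCC in Hoxd9. Both strands were searched. The Grainyhead-like motif AACCGGTT was in 0 of 24 Hox windows and in 0.116% of all 32851 windows. The looser AACNGGTT, which includes it, was in 2 Hox windows (Hoxa6 and Hoxd13) and 1.79% of all. CCAAT, bound by NF-Y, was in 14 Hox windows (58.3%) against 33.8% of all. The GC box CCGCCC was in 10 Hox windows (41.7%) against 32.7%. The E-box CACGTG, the TATA box TATAAA and the Hox-Pbx motif TGATNNAT were each in 4 Hox windows (16.7%), against 6.02%, 12.4% and 7.68% of all. The median GC content was 58.6% in Hox windows and 52.4% in all. These shares are descriptions of letters in a short window, not binding sites.

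Hox expression was low in every library. All 39 genes together had 165 and 128 counts in shNT and 266 and 207 in shGrhl3, which is 8.62 and 8.06 CPM against 13.3 and 11.1. Both shGrhl3 libraries stood above both shNT libraries, and the ratio of the means was 1.46. Of the 39 genes, 11 had 0 counts in all 4 libraries, a result that allows up to 0.0407 CPM over the libraries pooled, for counting error only. These were Hoxa6, Hoxa11, Hoxa13, Hoxb1, Hoxb6, Hoxb13, Hoxc8, Hoxc9, Hoxc12, Hoxd11 and Hoxd12. Another 12 genes were counted in all 4 libraries. Among them were Hoxa3, Hoxb3, Hoxb4, Hoxb9, Hoxc13, Hoxd8 and Hoxd10, from both ends of the clusters.

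**Figure D1:**
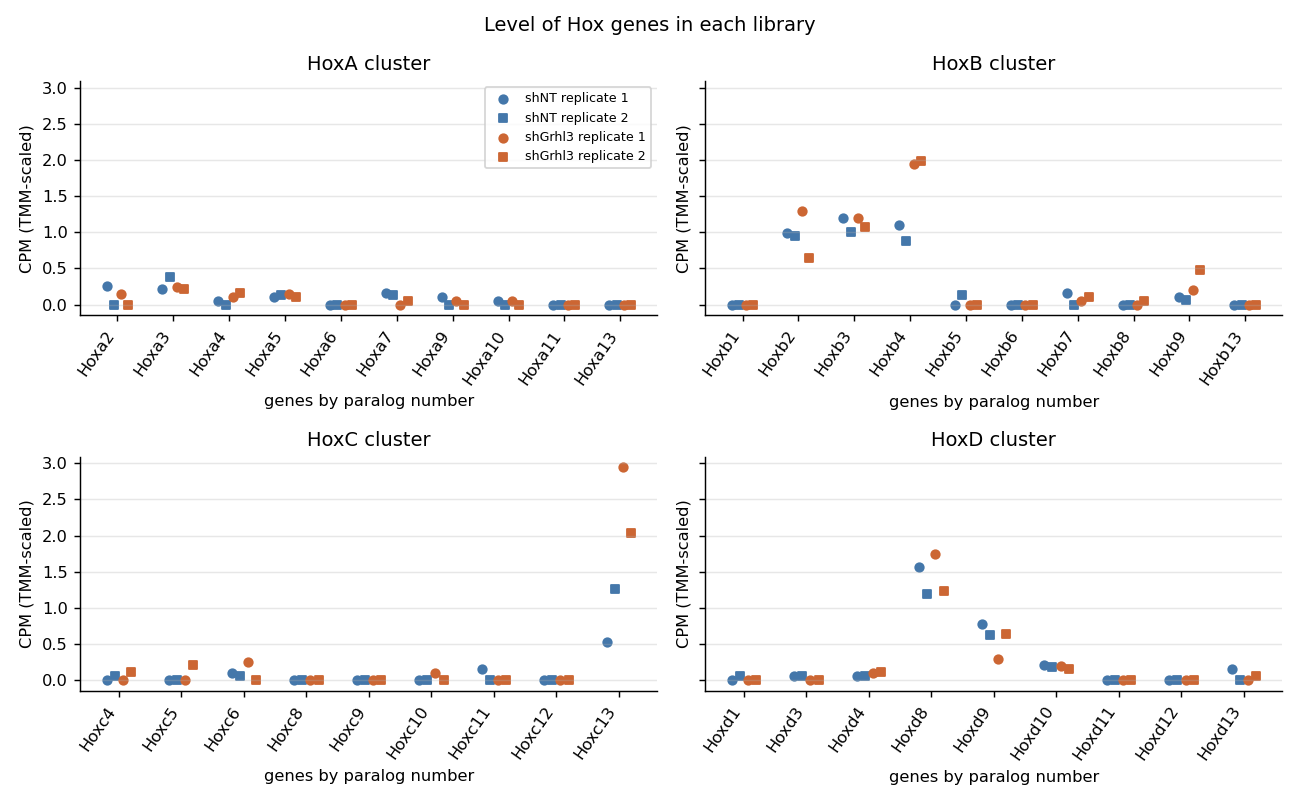
Level in CPM (vertical axis) of Hox genes by cluster and paralog number, with 1 point per library (blue shNT, orange shGrhl3). Most genes sit at or near 0, and Hoxb4 and Hoxc13 are among those reaching 1.6 CPM or more in both shGrhl3 libraries while staying below 1.3 CPM in both shNT libraries.

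The cluster sums did not move alike. HoxA summed to 1.46 and 1.45 CPM in shNT and 2.94 and 2.19 in shGrhl3, a ratio of 1.76. HoxB summed to 3.55 and 3.02 CPM against 4.69 and 4.34, a ratio of 1.37. In both clusters the groups did not overlap. HoxC summed to 0.784 and 1.39 CPM against 3.29 and 2.36, a ratio of 2.60, also without overlap. These sums leaned on few genes. Hoxc13 held 10 of 15 and 20 of 22 HoxC counts in shNT and 59 of 66 and 38 of 44 in shGrhl3. Hoxb4 held 21 of 68 and 14 of 48 HoxB counts in shNT and 39 of 94 and 37 of 81 in shGrhl3. HoxD summed to 2.82 and 2.20 CPM against 2.34 and 2.19, a ratio of 0.903, with overlapping groups. With 2 libraries against 2 an exact permutation test, two-sided, cannot go below 0.333, so the sums were not tested.

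By position in the cluster, the 12 genes of paralog groups 1 to 4 summed to 4.44 and 4.28 CPM in shNT and 7.23 and 5.94 in shGrhl3 (ratio 1.51). The 11 genes of groups 5 to 8 summed to 2.09 and 1.64 CPM against 2.19 and 1.77 (ratio 1.06). The 16 genes of groups 9 to 13 summed to 2.09 and 2.14 CPM against 3.84 and 3.37 (ratio 1.70). The head end and the tail end of the clusters both stood higher in shGrhl3, and the middle groups overlapped.

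**Figure D2:**
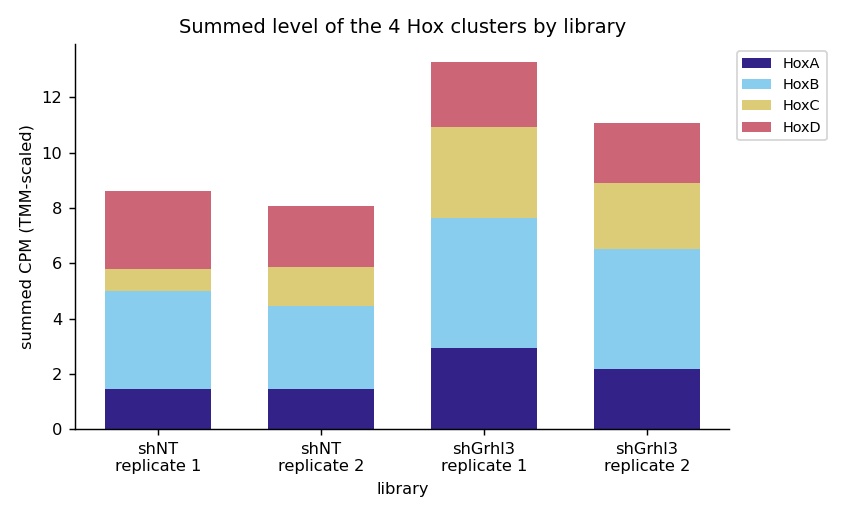
Summed CPM of the Hox genes (bar height) in each of the 4 libraries, with a colour for each cluster. The bars reach 8.62 and 8.06 CPM in shNT and 13.3 and 11.1 in shGrhl3, and the HoxD segment is of similar height in both groups.

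Only 7 of the 39 genes had enough counts to be tested, with at least 0.528 CPM in 2 libraries. Of these 7, 2 were called higher, Hoxc13 among them (28.6% of those tested, against 17.2% of all tested genes) and 0 were called lower, against 18.1%. DESeq2 called 1 higher and limma-voom 2, and both called 0 lower. At an unadjusted p below 0.05 edgeR had 3 higher and 0 lower. The share of all tested genes at that unadjusted threshold was not counted, so these counts cannot be set against a background. Among tested genes with totals in the range of these 7 (43 to 127 counts), 5.05% of 2059 were called higher and 7.24% lower. Hoxc13 passed the count filter through both shGrhl3 libraries and 1 shNT library, so its presence among the tested genes leans on the group where it is high. The number called higher was 0 without shNT replicate 1 and 0 without shGrhl3 replicate 1.

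Hoxc13, at the tail end of HoxC and known for its role in hair and nail keratin expression, lies at chr15:102921131-102928814 and overlaps no other listed gene. It had 10 and 20 counts in shNT and 59 and 38 in shGrhl3. The groups did not overlap, though the shNT libraries differed 2-fold in counts. Its level was 0.891 ± 0.521 CPM (SD, n = 2) in shNT and 2.49 ± 0.642 in shGrhl3. edgeR's quasi-likelihood test gave a log2 fold change of 1.54 (SE 0.45, 95% interval 0.60 to 2.47; adjusted p = 0.00996). It was 0.98 (edgeR adjusted p = 0.186) without shNT replicate 1 and 1.24 (edgeR adjusted p = 0.0733) without shGrhl3 replicate 1. Leaving out shNT replicate 2 gave 2.25 (edgeR adjusted p = 0.00289). Its neighbour Hoxc12 had 0 counts in all 4 libraries, and Hoxc11 had 3 and 0 in shNT and 0 and 0 in shGrhl3. The epithelial marker Krt18 rose as well, with 49 and 31 counts in shNT and 84 and 82 in shGrhl3 (log2 fold change 0.91, edgeR adjusted p = 0.0196). It was 1 of the 2 epithelial markers tested. The other, Krt8, had 14 and 10 counts in shNT and 34 and 3 in shGrhl3. Its groups overlapped and it did not pass (log2 fold change 0.47, edgeR adjusted p = 0.662). Cdh1 had 2 and 0 counts in shNT and 4 and 1 in shGrhl3, and Epcam had 1 and 1 and then 2 and 0. The part of any cell type in the Hoxc13 call was not tested.

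Hoxb4, a regulator of blood stem cell growth, lies at chr11:96318267-96321638, inside the span of Hoxb3. It had 21 and 14 counts in shNT and 39 and 37 in shGrhl3, so the groups did not overlap. Its level was 0.989 ± 0.153 CPM (SD, n = 2) in shNT and 1.96 ± 0.0252 in shGrhl3. edgeR's quasi-likelihood test gave a log2 fold change of 0.97 (SE 0.43, 95% interval 0.09 to 1.85; adjusted p = 0.0818). It passed the threshold in 0 of 13 alternatives.

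**Figure D3:**
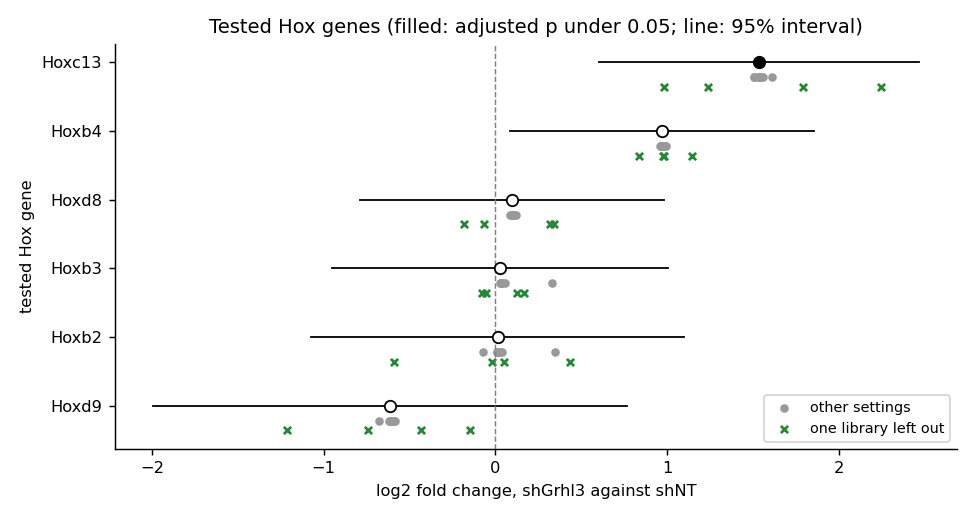
Log2 fold change of shGrhl3 against shNT for tested Hox genes, with 95% intervals as lines, filled points for those past the threshold, and small marks below for other settings and left-out libraries. The intervals of Hoxc13 and Hoxb4 lie above 0, and those of Hoxb2, Hoxb3, Hoxd8 and Hoxd9 span it.

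Hoxb2, Hoxb3, Hoxd8 and Hoxd9 did not pass. Hoxb2, which patterns the hindbrain, had 19 and 15 counts in shNT and 26 and 12 in shGrhl3 (log2 fold change 0.01, 95% interval -1.07 to 1.10, edgeR adjusted p = 0.987). Hoxb3 had 23 and 16 against 24 and 20 (0.03, interval -0.95 to 1.01, edgeR adjusted p = 0.971). For both genes the groups overlapped, and the intervals still allow a change of about the size seen for Hoxb4. Hoxd8 had 30 and 19 counts against 35 and 23 (0.10, interval -0.79 to 0.98, edgeR adjusted p = 0.889). Hoxd9, a limb and trunk patterning gene, had 15 and 10 against 6 and 12 (-0.61, interval -1.99 to 0.77, edgeR adjusted p = 0.518). Non-overlap towards shGrhl3 was seen in 3 of the 7 tested genes and towards shNT in 0, against 32.8% and 33.7% of all tested genes.

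The 32 genes outside the test summed to 1.93 and 1.32 CPM in shNT and 1.65 and 1.82 in shGrhl3. Of these, 21 had any count, and the largest total was 19, in Hoxa3 (4 and 6 in shNT, 5 and 4 in shGrhl3). Hoxb9 had 2 and 1 counts in shNT and 4 and 9 in shGrhl3. With no count filter, 28 Hox genes of 26163 genes entered the fit, and the log2 fold change of Hoxb9 was 1.89 (SE 1.15, edgeR adjusted p = 0.314). In that fit Hoxc13 again passed (edgeR adjusted p = 0.0112) and Hoxb4 did not (edgeR adjusted p = 0.113). Hoxd10 had 4 and 3 counts in each group, Hoxa5 had 2 and 2 against 3 and 2, and Hoxd4 had 1 and 1 against 2 and 2. Hoxc5 had 0 and 0 against 0 and 4, counted in 1 library alone. The remaining 15 of these genes, such as Hoxa2, Hoxb7 and Hoxc6, had 0 to 5 counts in a library. At these counts a difference was not detectable.

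Noncoding genes of the clusters were looked up because some of them overlap Hox genes. Of 25 listed, 17 had a row and 11 of these were at 0, among them Hotair, Hottip and Halr1. Hotairm1, a noncoding gene of HoxA, had 27 and 17 counts in shNT and 29 and 35 in shGrhl3 (log2 fold change 0.40, SE 0.43, edgeR adjusted p = 0.512). Hoxb3os had 9 and 8 against 22 and 12 (0.84, SE 0.63, edgeR adjusted p = 0.320). In both the shGrhl3 libraries stood above the shNT libraries in CPM, as in 32.8% of all tested genes, and neither passed. For Hotairm1 the gap was narrow, with 1.41 CPM in shNT replicate 1 and 1.45 in shGrhl3 replicate 1. Hoxaas2 had 5 and 0 counts against 9 and 12, and Hoxd3os1 had 0 and 1 against 6 and 3, both too few to test. The clusters also carry the miR-10 and miR-196 genes, whose precursor rows were all at 0. A count table of this kind does not measure mature miRNAs.

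TALE cofactors were tested in full, 11 of 11, and 4 were lower and 1 higher, beside 18.1% and 17.2% of all tested genes, with a median log2 fold change of -0.21. Tgif1, a repressor of retinoid and TGF-beta responses, fell, with 92.8 and 104 CPM in shNT against 67.2 and 59.0 in shGrhl3, a log2 fold change of -0.64 (edgeR adjusted p = 2.07e-05). Meis1 (-0.44) and Pknox2 (-0.41), relatives within the TALE class, also fell, and Meis3 rose (0.37). The other 6 did not pass.

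Of 35 Polycomb genes tested, 5 were higher and 7 lower, close to the 17.2% and 18.1% of all tested genes, with a median of -0.07. The genes that follow are therefore given singly. Ezh2, the H3K27 methyltransferase, rose to 38.1 ± 2.48 CPM in shGrhl3 (SD, n = 2) against 24.4 ± 0.423 in shNT, a log2 fold change of 0.64 (edgeR adjusted p = 0.000125). Bmi1, a subunit of the complex that binds that mark, fell by 0.62 on the log2 scale, and its relative Pcgf2 fell by 0.50. Scmh1 rose by 0.55. Of 24 trithorax and demethylase genes tested, 1 was higher and 2 lower, fewer than the 17.2% and 18.1% of all tested genes would give. Mllt1 was at 0.41, Mllt3 at -1.05 and Ash2l at -0.41 on the log2 scale.

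Inputs to Hox expression, the retinoid pathway and the Cdx factors, were listed as 24 genes, of which 18 were tested, 4 higher and 9 lower, beside 17.2% and 18.1% of all tested genes, with a median of -0.44. Cdx1, Cdx2 and Cdx4 had 0 counts in all 4 libraries. Aldh1a1, an enzyme that makes retinoic acid, fell to 60.9 ± 3.74 CPM in shGrhl3 (SD, n = 2) against 144 ± 15.7 in shNT, a log2 fold change of -1.24. Aldh1a2, the main embryonic enzyme of that step, had a log2 fold change of -0.78, and Gdf11, a ligand that sets trunk and tail Hox domains, -1.26. The 4 genes called higher included Rarb, a retinoic acid receptor and a target of retinoic acid, with 33 and 26 counts in shNT and 91 and 82 in shGrhl3 (log2 fold change 1.40, edgeR adjusted p = 0.00107). Crabp2, which carries retinoic acid to the nucleus, had 10 and 1 against 51 and 28 (2.67, edgeR adjusted p = 0.00150). Rdh10 (0.44) and Rxra (0.38) were the others. Rdh10 makes the retinal from which retinoic acid is formed, and Rxra is the receptor partner of Rarb. These 4 were named because they are few. Relatives of theirs were among the genes called lower, namely Rarg (-0.47), Rara (-0.34) and Crabp1 (-1.17). Cyp26b1 (-0.95) and Dhrs3 (-0.35) were called lower as well.

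**Figure D4:**
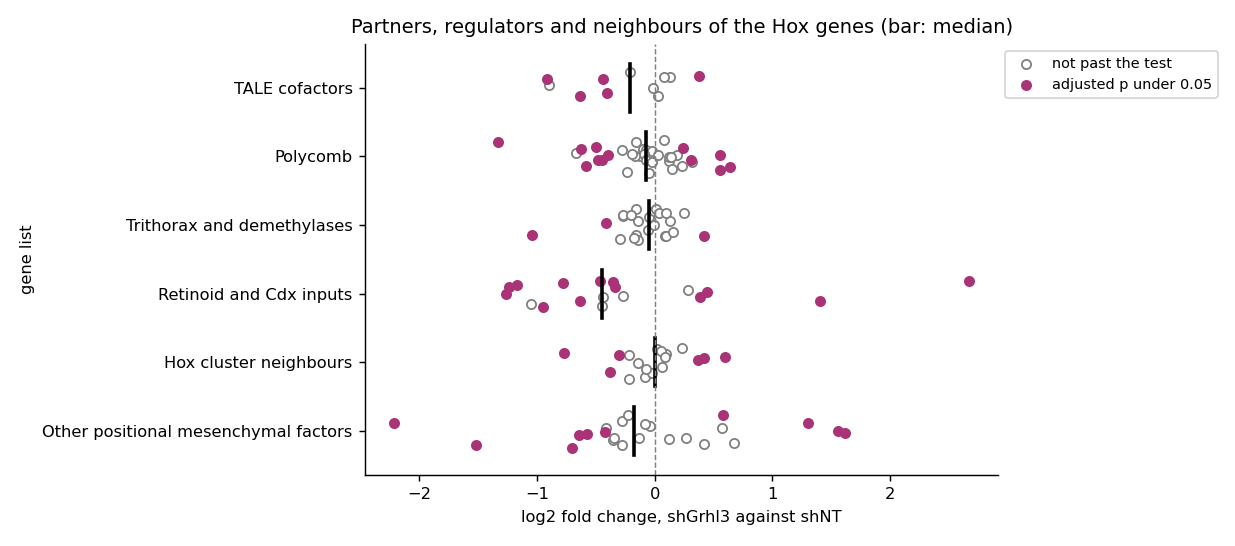
Log2 fold change (horizontal axis) of every tested gene in 6 lists of partners, regulators and neighbours of the Hox genes, filled where past the threshold, with a bar at each list median. Of these 6 lists the retinoid and Cdx list has the lowest median, -0.44, and called genes lie on both sides of 0 in each list.

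Genes that flank the clusters were compared because they share the chromosome region but not the Hox code. Of 24 in the table, 18 were tested, with 3 higher and 3 lower (16.7% each, close to the 17.2% and 18.1% of all tested genes) and a median of 0.00. Cbx1, near HoxB, fell by 0.77 on the log2 scale, and Nfe2l1 rose by 0.42. Hnrnpa3 rose by 0.60 and Atp5g3, near HoxD, by 0.37. Evx1 and Evx2, the homeobox genes just beyond the tail ends of HoxA and HoxD, had 0 counts in all 4 libraries.

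Other transcription factors that mark mesenchymal position were listed as 46 genes, of which 24 were tested, 4 higher and 6 lower, with a median of -0.18. Over all tested genes the shares were 17.2% and 18.1%, near those of the list. Tcf21, a factor of cardiac fibroblasts, fell by 0.71 and Prrx1 by 0.57 on the log2 scale. Meox1, a fibroblast activation regulator, had 37 and 31 counts in shNT and 13 and 3 in shGrhl3 (log2 fold change -2.22, edgeR adjusted p = 0.00286). Foxf1, a factor of lung and gut mesenchyme, had 17 and 13 against 50 and 52 (1.61, edgeR adjusted p = 0.00371).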

How the data were processed

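The authors deposited raw read counts for the 4 RNA-seq libraries in 1 table. Tools named in the submitters' processing notes, with no role, include HISAT2 2.0.1 and cutadapt 1.9.1, and the build is mm10. For counting, the program, annotation and strand setting were not given in the sources used here, so reads of overlapping genes may be shared. The columns named shGrhl1 and shGrhl2 were read as shGrhl3 replicates 1 and 2, since the labels name no other target, although the names could mean Grhl1 and Grhl2 hairpins. The 1438 rows without a gene name, 0.00432% to 0.00872% of the counts, were left out. Libraries of a group differed beyond sampling noise (chi-square per degree of freedom 14.1 in shNT, 8.66 in shGrhl3). Rn18s took 0.573% and 2.00% of the counts in shNT and 0.0959% and 0.156% in shGrhl3.

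Counts were tested with edgeR 4.0.16 (R 4.3.3; filterByExpr minimum count 10, TMM, robust quasi-likelihood fit), two-sided, with Benjamini-Hochberg adjustment over 15324 genes at 0.05. SEs come from the F statistic. DESeq2 1.42.0, limma-voom (limma 3.58.1), other scalings and filters, a replicate block and leaving out each library were alternatives. Levels are not scaled to length and were not compared between genes. The Hox members and all lists were chosen with earlier results of these data known. Genes named by rule are all Hox members past the threshold or leading their cluster, and up to 4 members of each list with the lowest p. Meis3, Rarb, Crabp2, Rdh10, Rxra and the cell type markers were named after their values were seen. The same holds for Rarg, Rara, Crabp1, Cyp26b1 and Dhrs3. A few genes counted above, called ones included, are not reported here by name.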

Additional observations from a re-analysis of the deposited data

How the results depend on the processing

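Of 221 alternative values of counts and sums, 200 stayed close to those reported. The limit for close was loose, since 4234 genes called in all with DESeq2 counted as close to 5401 in the main fit. These values cover the whole table and the other gene lists as well as the Hox genes. The number of Hox genes called higher was 1 with DESeq2 and ranged from 0 to 2 when single libraries were left out, with 0 without shNT replicate 1 and 0 without shGrhl3 replicate 1. Over 13 alternatives, Hoxc13 ranged from 0.98 to 2.25 on the log2 scale and passed in 11. Log2 fold changes near 0 changed sign. Hoxb2 was -0.073 with limma-voom. With single libraries left out Hoxb2 ranged from -0.59 to 0.43, Hoxd8 from -0.18 to 0.34 and Hoxb3 from -0.080 to 0.17, each below 0 without shNT replicate 2 and without shGrhl3 replicate 1. With a replicate block 2 Hox genes were called higher (Hoxc13 at 1.53, edgeR adjusted p = 0.00734) and 5043 genes in all. Same-numbered libraries share only a number, with a correlation of deviations of -0.0605.

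With single libraries left out, called genes ranged over 3832 to 5189 in all. TALE ranged over 0 to 1 higher and 2 to 4 lower, Polycomb 2 to 5 higher and 4 to 7 lower, and trithorax 1 to 2 higher and 2 to 6 lower. Retinoid and Cdx genes higher ranged over 2 to 5, flanking genes lower over 1 to 3, and other positional factors over 1 to 4 higher and 3 to 6 lower. The log2 ratio of sums ranged from 0.59 to 1.04 for HoxA and from -0.31 to 0.040 for HoxD. Trithorax genes higher were 2 with scaling by library size only, and with DESeq2 TALE higher was 0 and other positional factors higher were 2. Retinoid and Cdx genes were 3 higher and 7 lower with DESeq2, against 4 and 9 in the main fit. The causes were not tested. No Hox gene had more than 59 counts in a library, which limits what could be detected.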
